A study of Rattus norvegicus with 36 samples.

Results

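Pla2g2a encodes the group IIA secreted phospholipase A2, and its expression was followed in 36 rat livers. All probe sets that the platform annotation pairs with Pla2g2a alone were taken, which was 1 probe set of 31042 and 1 of 14217 genes with a probe set of their own. The gene was chosen by its values in these same livers, its slope over dose among them, so its levels, its slope over dose and its correlations are given as a description, with no test.

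The livers came from male Harlan Sprague Dawley rats, 7 weeks old at the start, that were gavaged on 5 consecutive days and killed 1 day after the last dose. The 6 groups, of 6 animals and 6 arrays each, received corn oil alone (vehicle) or the flame retardant TBBPA-DBPE in corn oil. It is a brominated ether derived from tetrabromobisphenol A. Daily doses were 0.1 and 0.94 mg/kg at the low end, 9.4 mg/kg in the middle, and 94.3 and 943 mg/kg at the high end. All animals, vehicle included, shared the corn oil, the gavage and the diet. Values are log2 expression after RMA (a background correction, quantile normalization and summary over the probes of a set), so that 1 unit is a 2-fold step. The labels give 1 array per animal and no pooling, and the number of arrays limits the precision.

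The median log2 value of an array was 4.59 to 4.66, and any 2 arrays correlated at 0.989 to 0.997 over the probe sets. Of 10 hepatocyte markers, 9 had a probe set naming 1 gene, and all 9 lay above every array median, with albumin (Alb) at 14.40 and transthyretin (Ttr) at 13.94. In RNA from whole liver, a change in the number of cells that express a gene cannot be told apart from a change in RNA per cell.

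Group IIA phospholipase is a small calcium-dependent enzyme that is secreted, binds anionic membranes and cuts phospholipids into a free fatty acid and a lysophospholipid. It kills Gram-positive bacteria, feeds the prostaglandin and leukotriene pathways through the arachidonic acid it can release, and is known as an acute phase protein induced by interleukin-1, tumour necrosis factor and interleukin-6. In rat vascular smooth muscle cells its transcription is known to depend on NF-kB and C/EBP factors. Its close relatives lie beside it in the genome.

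The promoter is shown because these factors and their cytokines form the lists that were set beside Pla2g2a. RefSeq places the 250 bases before the annotated start at chr5:156359475-156359724, plus strand, in GRCr8. Capitals mark matches to a loose NF-kB pattern (3 guanines, any 5 bases and 2 cytosines), to TTNNGNAA (a loose C/EBP pattern) and to TATTTAA (resembling the TATA box, and chosen after the sequence was seen), each searched on both strands.

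Pla2g2a: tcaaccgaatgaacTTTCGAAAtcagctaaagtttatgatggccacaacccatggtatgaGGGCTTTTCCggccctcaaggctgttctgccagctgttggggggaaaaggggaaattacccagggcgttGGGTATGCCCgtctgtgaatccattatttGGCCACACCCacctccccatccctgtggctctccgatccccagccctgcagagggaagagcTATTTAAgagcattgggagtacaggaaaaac

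The NF-kB pattern matched 3 times, with the first match running from 190 to 181 bases before the start, and 42.3% of 33469 rat promoter windows of the same length hold at least 1 match. The C/EBP pattern matched once, from 236 to 229 bases before the start, and 37.2% of the windows hold it. TATTTAA ran from 31 to 25 bases before the start, and 4.16% of the windows hold it. TATAAA, found in 12.9% of the windows, had 0 matches here. The matches did not overlap each other, and a match is a string of letters, not a measured binding site.

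Pla2g2a was highest at the top dose, where 5 of 6 livers lay above every vehicle liver. At 943 mg/kg the 6 animals had log2 values of 7.29, 7.38, 5.09, 7.02, 7.33 and 8.06, against 6.67, 5.31, 5.18, 5.44, 6.40 and 4.86 in vehicle. Replicate 3 at 943 mg/kg was the exception, and its 5.09 lay inside the vehicle range. The mean was 7.03 ± 1.01 at 943 mg/kg and 5.64 ± 0.72 in vehicle (SD, n = 6 each). The difference was 1.38 ± 0.40 (SE), a 2.61-fold higher level, with a 95% interval from 0.57 to 2.20 that is given as a description. Among all 14217 genes, 1.29% had 5 or 6 of the animals at 943 mg/kg above the highest vehicle animal. Since the gene was picked for its dose pattern, nothing is read from that share.

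At the lowest dose, 0.1 mg/kg, Pla2g2a ran from 4.96 through a median of 5.32 to 6.17. All 6 of these livers lay inside the vehicle range. At 0.94 mg/kg the lowest, median and highest values were 4.86, 5.57 and 6.88, and at 9.4 mg/kg they were 5.14, 5.79 and 6.79. In each of these groups 1 animal, replicate 6 in both, lay above the highest vehicle animal. At 94.3 mg/kg the values ran from 5.35 through a median of 5.97 to 7.49. Here the livers were split, with 7.34 and 7.49 in replicates 3 and 5, above all vehicle animals, and the other 4 between 5.35 and 6.28. The median at 943 mg/kg was 7.31, against a vehicle median of 5.38.

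**Figure D1:**
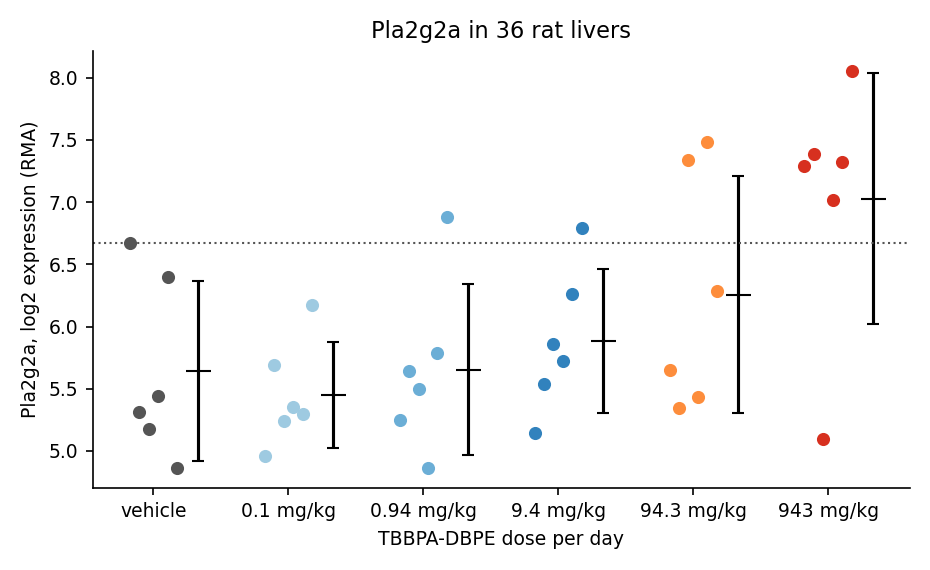
Log2 expression of Pla2g2a (vertical axis) in each of 36 livers (points) by daily dose (horizontal axis), with the group mean and SD beside the points (n = 6 each) and a dotted line at the highest vehicle animal, 6.67. The points at 943 mg/kg lie above the line except for 1 at 5.09, and 9 of 30 dosed animals lie above it in all.

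The group means in ascending order were 5.45 ± 0.42 at 0.1 mg/kg, 5.64 ± 0.72 in vehicle, 5.65 ± 0.68 at 0.94 mg/kg, 5.89 ± 0.58 at 9.4 mg/kg, 6.26 ± 0.95 at 94.3 mg/kg and 7.03 ± 1.01 at 943 mg/kg (SD, n = 6 each). Every neighbouring pair in this order differed by less than the SD of its wider group, and all neighbouring ranges overlapped. The widest step, 0.77 log2 units, lay between 943 and 94.3 mg/kg. The step of 0.01 between 0.94 mg/kg and vehicle was the narrowest.

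Against vehicle, the differences with their SE from the shared fit (0.40 each) were -0.19 at 0.1 mg/kg, 0.01 at 0.94 mg/kg, 0.24 at 9.4 mg/kg and 0.61 at 94.3 mg/kg. These comparisons share the 6 vehicle arrays. As a description, the 95% intervals ran from -1.01 to 0.63 at 0.1 mg/kg, from -0.81 to 0.83 at 0.94 mg/kg, from -0.58 to 1.06 at 9.4 mg/kg and from -0.21 to 1.43 at 94.3 mg/kg. Vehicle replicate 1 was the highest of its group, and its array had the lowest median correlation with the other arrays (0.992). Without it, the difference at 0.1 mg/kg was 0.01, that at 0.94 mg/kg 0.22 and that at 9.4 mg/kg 0.45. Without replicate 6 of their own group, the differences were -0.23 at 0.94 mg/kg and 0.06 at 9.4 mg/kg. At 94.3 mg/kg the difference was 0.37 without replicate 5 of that group.

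Over the dose rank, from 0 for vehicle to 5 for 943 mg/kg, Pla2g2a had a slope of 0.27 ± 0.069 log2 units per rank (SE, 36 animals). No other probe set of the 31042 had an upward slope as large, while the median absolute slope over the genes was 0.0100. Since the gene was picked for its slope, nothing is read from that rank, and its spread between animals was also large. Over the whole table, 0 of 31042 probe sets, Pla2g2a included, passed limma's slope test at an adjusted p of 0.05 (0% in each direction). At an unadjusted p under 0.05, 857 probe sets sloped upward (2.76%) and 905 downward (2.92%). An ordinary linear model also gave 0 calls. Among the other genes, those of smallest p upward were Cyp1a1, a target gene of the aryl hydrocarbon receptor (slope 0.061 ± 0.013, limma adjusted p = 0.231), Ighl2, Epha3 and Fthl17a. Downward they were Tekt4, a tektin of cilia and flagella (slope -0.076 ± 0.014, limma adjusted p = 0.116), Cnst, Tnrc6b, Entrep3 and Kdm7a. None of these passed the threshold, and Cyp1a1, Epha3, Fthl17a and Tekt4 averaged below every array median. For each dose against vehicle, limma and the ordinary model gave 0 calls as well (0% of 31042). At an unadjusted p under 0.05 in limma, 3% of the probe sets were higher and 2.62% lower at 0.1 mg/kg, 2.1% and 2.06% at 0.94 mg/kg, and 2.21% and 2.64% at 9.4 mg/kg. The shares were 3.68% higher and 3.22% lower at 94.3 mg/kg, and 3.07% higher and 2.67% lower at 943 mg/kg.

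The slope drew much of its size from the top dose. It was 0.17 ± 0.080 without the animals at 943 mg/kg and 0.38 ± 0.088 over the dosed animals alone. With any 1 of the 36 animals left out it lay between 0.24 (without 943 mg/kg replicate 6, the highest animal of all) and 0.31 (without 943 mg/kg replicate 3).

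The gene also varied widely between animals that had been treated alike. Its SD around the group means was 0.756 log2 units, larger than that of 99.6% of the genes, whose median was 0.139. The whole range over the 36 livers was 3.19 log2 units, or 9.15-fold. In its own array, Pla2g2a stood above 53.1% of the probe sets in the lowest liver by that measure and above 88.4% in the highest. Vehicle animals were no exception, since replicates 1 and 5 (6.67 and 6.40) lay about 1 log2 unit above the next vehicle animal at 5.44.

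The other measured secreted phospholipases had slopes close to 0, and most of them had little signal. Of 11 other family members on the list, 8 had a probe set naming 1 gene. Of these 8, 0 passed the slope test in either direction (limma, smallest adjusted p = 0.945), the same as over all 31042 probe sets. At an unadjusted p under 0.05 there were 0 as well, beside 2.76% of all probe sets upward and 2.92% downward. The median slope of the 8 genes was 0.0020 log2 units per rank, beside 0.00080 over all genes. Pla2g5, a relative that hydrolyses phosphatidylcholine more readily, sloped by -0.000012 with a 95% interval from -0.028 to 0.028. Pla2g12a, the member with the highest signal among the 8, averaged 7.62 ± 0.22 at 943 mg/kg and 7.65 ± 0.40 in vehicle (SD, n = 6 each). Pla2g1b, the pancreatic digestive form, averaged 3.17 ± 0.26 and 3.30 ± 0.25 in the same groups. Pla2g10, a form active on outer cell membranes, differed by 0.07 at 943 mg/kg with a 95% interval from -0.11 to 0.25, and Pla2g3 by -0.04 (-0.25 to 0.17). Pla2g1b, Pla2g2c, Pla2g2d, Pla2g3 and Pla2g5 averaged below every array median, so that small changes in them could not be seen. Pla2g10 (mean 4.66) and Pla2g2f (4.75) averaged close to the array medians of 4.59 to 4.66, with the same limit. Only Pla2g12a (mean 7.61) lay well above them.

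Some of these same genes, with the same values, can also be read by position in the genome. In the RefSeq gene order of GRCr8, Pla2g2c, Pla2g2f, Pla2g2d and Pla2g5 precede Pla2g2a directly and Pla2g2e follows it. The 4 measured relatives in this cluster had slopes of 0.0044 (Pla2g2c), 0.012 (Pla2g2f), 0.0041 (Pla2g2d) and -0.000012 (Pla2g5), all with adjusted p from 0.960 to 1.000 in limma. Otud3, the next measured gene beyond Pla2g2e, sloped by -0.011. Pla2g2c, Pla2g2d, Pla2g5 and Otud3 averaged below every array median and Pla2g2f close to the medians. Small changes in these neighbours could therefore not be seen. Pla2g2e has no value here because no probe set names it alone.

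**Figure D2:**
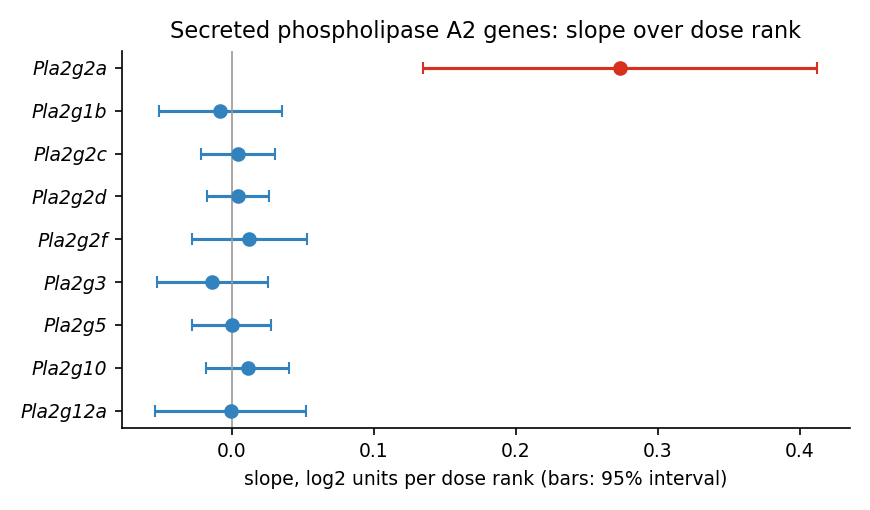
Slope in log2 units per dose rank (horizontal axis) with its 95% interval (bars) for Pla2g2a (red) and the 8 other measured secreted phospholipase A2 genes (blue), each over 36 livers. Pla2g2a lies at 0.27, and the 8 others lie between -0.014 and 0.012.

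Receptors, inhibitors and downstream enzymes were read next. As 0 of all 31042 probe sets passed the slope test, the counts of 0 here do not set these lists apart. Pla2r1, the phospholipase receptor, differed by 0.15 at 943 mg/kg with a 95% interval from -0.08 to 0.38. Among 8 measured receptor and inhibitor genes 0 passed the slope test, and 0 had an unadjusted p under 0.05. Of the 20 measured intracellular and lipoprotein phospholipases, 0 passed. Pla2g4a, the cytosolic enzyme that supplies arachidonic acid, sloped by 0.022 ± 0.021, and Pnpla7, a lysophospholipase, by -0.028 ± 0.014 (limma adjusted p = 0.875). Of 25 measured genes of prostaglandin and leukotriene synthesis and receptors, 0 passed, with a median slope of 0.011. Ptgs2, the inducible cyclooxygenase, had the smallest p of that list at a slope of 0.026 ± 0.014, from a mean of 2.11 that lies below every array median. Ptgis, prostacyclin synthase, sloped by 0.043 ± 0.023. Of 20 measured lysophospholipid genes, 0 passed, with a median slope of 0.0018.

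No measured gene of the inflammatory input or acute phase lists passed the slope test. Since 0 of all 31042 probe sets passed it, these counts do not set the lists apart. Of 25 measured acute phase genes 0 passed the slope test, and the median slope was -0.0027. Crp, C-reactive protein, differed by -0.065 at 943 mg/kg (95% interval -0.194 to 0.064), Hp, haptoglobin, by 0.013 (-0.058 to 0.084), and A2m, the classic rat acute phase protein alpha-2-macroglobulin, by -0.10 (-0.68 to 0.47). The mean of the 25 genes lay between 10.89 and 10.98 in the livers at 943 mg/kg and between 10.91 and 11.02 in vehicle livers. Of 27 genes of NF-kB and its cytokine inputs, 0 passed, with a median slope of 0.00028 and slopes from -0.040 to 0.133. Tnfaip3, an NF-kB target that restrains the pathway, sloped by 0.063 ± 0.032 and Il1b by 0.044 ± 0.029. Nfkbia, the NF-kB inhibitor, differed by 0.08 (-0.20 to 0.35) at 943 mg/kg, and Cebpb, a C/EBP factor, sloped by -0.049 ± 0.033. Of 12 measured antimicrobial protein genes, 0 passed, and S100a9, a calprotectin subunit, had the smallest p (slope 0.094 ± 0.043, limma adjusted p = 0.874). The median slope of the 12 was -0.012, only 2 of them sloped upward, and 9 averaged below every array median.

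Over all 19 lists, 235 of 265 different genes other than Pla2g2a were measured. Of these, 0 passed the slope test, the same as over all 31042 probe sets. At an unadjusted p under 0.05, 2 sloped upward (0.851%, against 2.76% of all probe sets) and 2 downward (0.851%, against 2.92%). The list shares count 1 probe set per gene, while the others count all probe sets, unnamed ones included. The shares are therefore not like for like. The upward ones were S100a9 and Krt7, a bile duct keratin, and the downward ones Pnpla7 and Ptprb, an endothelial phosphatase.

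**Figure D3:**
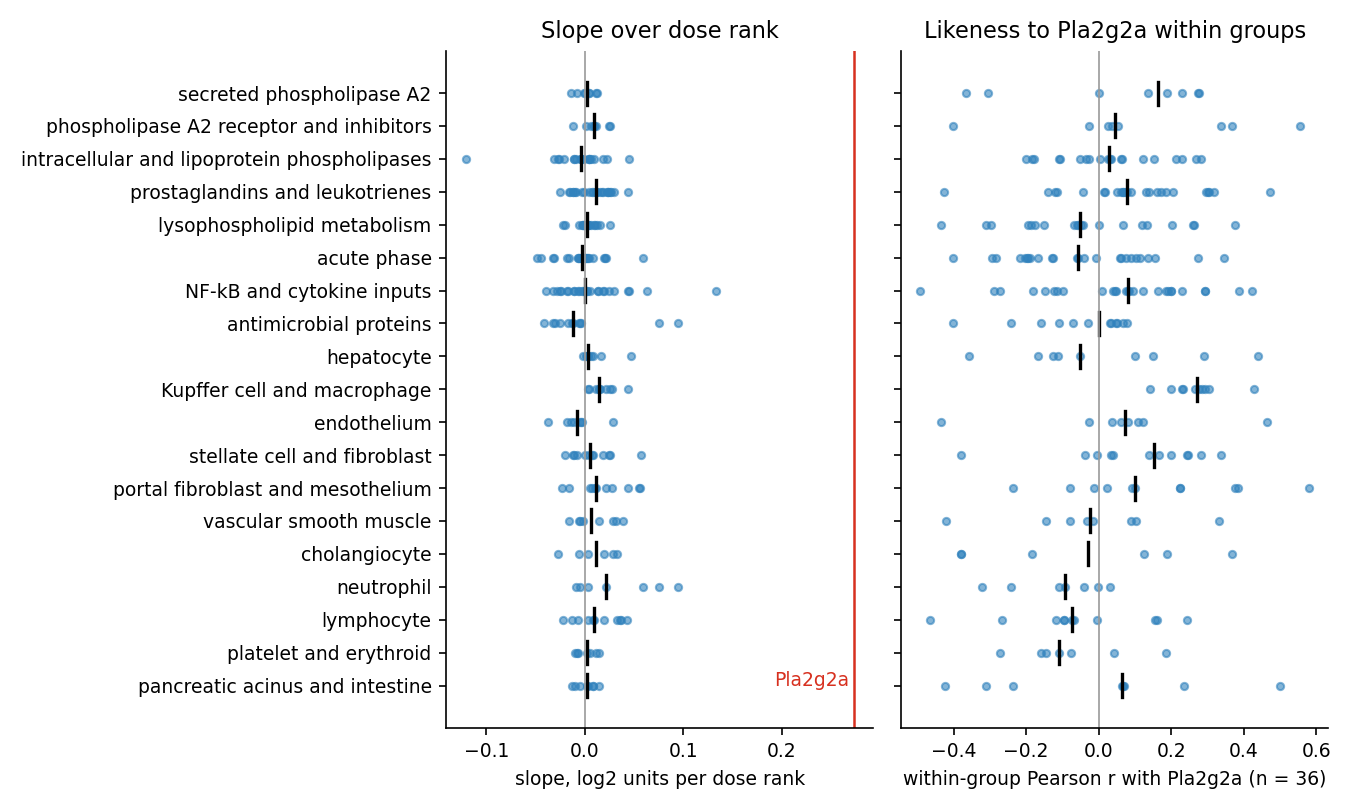
Members of 19 gene lists (rows, 1 point per measured gene, Pla2g2a left out) by slope over dose rank in log2 units per rank (left) and by Pearson r with Pla2g2a within groups over 36 livers (right), with black bars at list medians and a red line at the Pla2g2a slope. All points on the left lie below the Pla2g2a slope of 0.27, as they must, since no other probe set had an upward slope as large. On the right the Kupffer cell and macrophage points all lie above 0, from 0.14 to 0.43.

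Likeness to Pla2g2a among animals was measured after subtracting each group's mean from its animals, so that differences between group means did not enter. Differences in spread did: the SD of Pla2g2a was 0.42 at 0.1 mg/kg, 0.95 at 94.3 mg/kg and 1.01 at 943 mg/kg. Groups of wide spread therefore weigh more. Likeness is given as Pearson's r over 36 livers, with 1 probe set per gene, and the points share the array of each liver and its normalization. The median r over 14216 genes was 0.016, and 113 genes (0.795%) reached 0.5 in size, 73 of them positive. These values are descriptions of the same 36 livers, and genes are not independent of each other.

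Iah1, an esterase of the isoamyl acetate-hydrolysing type, was most like Pla2g2a (r = 0.69, Spearman rho = 0.69, and r = 0.77 without the 2 livers farthest from the Pla2g2a median in level). Without 943 mg/kg replicate 3, the liver farthest from its group mean, r was 0.63 for Iah1, 0.63 for Dohh and 0.57 for Msln. The range of Iah1 was narrow, with 9.22, 9.15, 8.90, 9.10, 9.39 and 9.12 in the livers at 943 mg/kg and 9.22, 8.99, 9.03, 8.87, 9.20 and 9.03 in vehicle livers. The lowest Iah1 value at 943 mg/kg fell in replicate 3, which also had the lowest Pla2g2a of that group. The top pair of vehicle animals, replicates 1 and 5, was likewise the same for both genes. Other livers did not match. The 2 livers of highest Pla2g2a were 943 mg/kg replicate 6 (8.06) and 94.3 mg/kg replicate 5 (7.49). Their Iah1 deviated from the group mean by only -0.026 and 0.005.

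Dohh, the enzyme that completes hypusine in the translation factor eIF5A, followed at r = 0.67, and Mpv17l2, a protein of mitochondrial ribosome assembly, at r = 0.66. Prr15 had r = 0.63, the makorin ubiquitin ligase gene Mkrn2 r = 0.62, Mrln, a regulator of the muscle calcium pump, r = 0.62, and Crip1, a LIM domain protein, r = 0.61. Sema3c, a secreted semaphorin, had r = 0.61, Ppfia1, a scaffold of cell adhesions, r = 0.61, and Tap2, a subunit of the peptide transporter for MHC class I, r = 0.60. The other probe set of Ppfia1 had r = -0.16. Prr15, Mrln and Sema3c averaged below every array median.

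At the other end, Col15a1, a basement membrane collagen, had r = -0.61, Adamts8, a secreted protease, r = -0.61, Zc3h3, a zinc finger protein of mRNA export, r = -0.60, the water channel gene Aqp1 r = -0.59, and the kinase gene Prkcq r = -0.57. A second probe set gave r = -0.45 for Aqp1 and r = 0.23 for Col15a1. Col15a1, Adamts8 and Prkcq averaged below every array median.

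**Figure D4:**
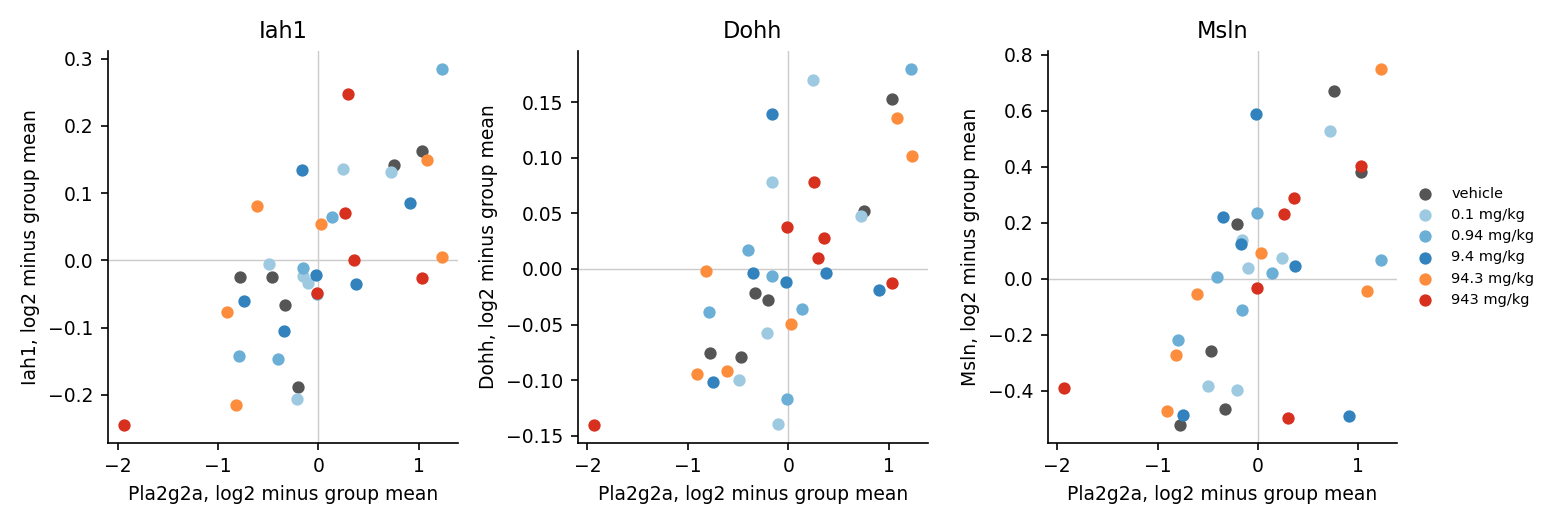
Deviation of each liver from its group mean in log2 units for Pla2g2a (horizontal axes) against Iah1, Dohh and Msln (vertical axes), 36 livers coloured by dose group. The liver farthest left in each panel is 943 mg/kg replicate 3, and r is 0.69, 0.67 and 0.58 over all livers.

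The rule did not use the dose response of these genes, so it was tested. Of the 10 most like Pla2g2a, 0 passed limma's slope test, the same as over all 31042 probe sets. In the upward direction 0 had an unadjusted p under 0.05 (2.76% of all probe sets), although 7 had a positive slope. Iah1 averaged 9.15 ± 0.16 at 943 mg/kg and 9.06 ± 0.13 in vehicle (SD, n = 6 each), a difference of 0.09 ± 0.078 (SE, limma adjusted p = 0.903). Dohh averaged 8.31 ± 0.08 and 8.32 ± 0.09 in the same groups. Sema3c had the steepest slope of the 10, at 0.047 ± 0.032 (limma adjusted p = 0.891). Among the 5 of lowest r, Col15a1 had an unadjusted p under 0.05, with an upward slope of 0.034 ± 0.014 (limma adjusted p = 0.859), while its second probe set sloped by -0.0087.

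Markers of other cell types were set beside these correlations. In the list of portal fibroblast and mesothelium markers, 11 of 12 were measured, and 8 of 11 had a positive r with a median of 0.10. Msln, mesothelin of the liver surface, had the highest r of any list member at 0.58 (rho = 0.57, and r = 0.49 without the 2 livers farthest from the Pla2g2a median). Gpc3 and Wt1, which mesothelium also expresses, had r = 0.38 each, and the lowest r of the list was -0.24. At 943 mg/kg Msln was 5.98, 6.03, 5.36, 5.72, 5.25 and 6.15, against 5.96, 5.11, 5.32, 5.77, 6.25 and 5.05 in vehicle. The Msln groups overlapped almost fully, with a difference of 0.17 ± 0.21 (SE). The list mean ran from 4.53 to 4.87 at 943 mg/kg and from 4.45 to 4.96 in vehicle, and Thy1, Fbln1, Pi16, Gpc3 and Wt1 averaged below every array median. With Msln as a covariate the Pla2g2a slope was 0.23 ± 0.061, and with the list mean 0.24 ± 0.066, both computed after the data were seen. The part of these cells in the Pla2g2a levels was not tested.

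All 10 measured Kupffer cell and macrophage markers of 12 had a positive r with Pla2g2a, with a median of 0.27 and the mannose receptor Mrc1 highest at 0.43. Their mean ran from 7.90 to 8.51 at 943 mg/kg and from 7.79 to 8.56 in vehicle. Of the 10, 0 passed the slope test, the same as over all 31042 probe sets. None of the 10 averaged below an array median. The part of these cells in the Pla2g2a levels was not tested, and with their mean as a covariate the slope was 0.26 ± 0.068.

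The annexin Anxa1, known as an endogenous phospholipase A2 inhibitor, had r = 0.56 (rho = 0.58, and r = 0.52 without the 2 extreme livers). It ran from 6.76 to 7.39 at 943 mg/kg and from 6.49 to 7.66 in vehicle. Tbxas1, thromboxane synthase, had the highest r of the eicosanoid list at 0.47, and the prostaglandin receptor gene Ptger3 the lowest at -0.43. In the cytokine list Il1b had r = 0.42 and Il6 r = -0.49, with Il6 at a mean of 2.25, below every array median. Acute phase genes had a median r of -0.057 and their list mean r = -0.017. Hamp, the iron hormone hepcidin, had the largest r of that list in size at -0.40.

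Neutrophil markers had a median r of -0.092, with 7 of 10 measured and S100a8, Csf3r, Cxcr2, Mmp8 and Camp below every array median. The mean of these 7 genes was 3.90 ± 0.095 at 943 mg/kg and 3.75 ± 0.11 in vehicle (SD, n = 6 each). The groups overlapped, with the lowest liver at 943 mg/kg at 3.76 and the highest vehicle liver at 3.91. It was 3.97 ± 0.40 at 9.4 mg/kg, and the median difference of the members between 943 mg/kg and vehicle was 0.21. The part of these cells in the Pla2g2a levels was not tested. Stellate cell and fibroblast markers had a median r of 0.15 (12 of 12 measured), endothelial markers 0.072 (8 of 10), cholangiocyte markers -0.029 (6 of 8), vascular smooth muscle markers -0.022 (8 of 8), lymphocyte markers -0.073 (11 of 12), platelet and erythroid markers -0.11 (7 of 9) and hepatocyte markers -0.051. Of the measured markers, 9 of 11 for lymphocytes and 1 of 12 for stellate cells and fibroblasts averaged below every array median. The same held for 3 of 6 cholangiocyte, 3 of 8 vascular smooth muscle and 3 of 7 platelet and erythroid markers. Lyve1, an endothelial hyaluronan receptor, had r = 0.46, Kdr, the endothelial receptor for vascular endothelial growth factor, r = -0.44, and Cd79b, a B cell receptor chain, -0.47. In the pancreatic and intestinal list the median r was 0.065 (8 of 9 measured, 5 positive). Cela1, an elastase, had r = 0.50 with a mean of 9.70, and Pnlip, pancreatic lipase, r = -0.42 with a mean of 3.75, while Cpa1, Prss1 and Amy2a3, like Pnlip, averaged below every array median.

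Abhd3, a phospholipase of the intracellular list, had r = -0.025 with Pla2g2a, and Bcl6, a transcriptional repressor, r = 0.14. With Ephx2, the soluble epoxide hydrolase, r was 0.33, and 0.51 without the 2 livers farthest from the Pla2g2a median.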

How the data were processed

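Liver RNA of 36 rats was measured on single-colour Affymetrix arrays. The deposited values are log2 expression for each probe set, and the submitters' processing notes name RMA and affy as the authors' tools, without versions. The 57 control probe sets were left out, and 31042 were tested with no filter on signal. Of these, 20826 name 1 gene and 436 several, and 9780 are unnamed here. Of those naming 1 gene, 20758 matched a rat gene table by Entrez identifier, with 0 symbols updated. The probe set of highest mean stands for a gene.

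The model was limma 3.58.1 in R 4.3.3, in place of the R/maanova test of the series' design text. It fitted a slope over dose rank, and a mean per group with each dose against vehicle, over 36 arrays, with Benjamini-Hochberg adjustment over all probe sets and a threshold of 0.05. Tests are two-sided. The fit was tested on simulated data. Gene lists were described by counts and medians. Named genes were the secreted phospholipase family, the 10 highest and 5 lowest correlations within groups, the 5 genes of smallest slope p in each direction, and up to 4 genes by slope and 3 by correlation per list. Abhd3, Bcl6 and Ephx2 and the list members given for their role were chosen outside this rule. Pla2g2a and the lists were chosen with earlier results of these data known. The alternatives were other normalizations, dose scores, subsets of animals, covariates, a replicate block, a signal filter, a variance trend and leaving out each animal. The sequence is RefSeq's, build GRCr8.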

Additional observations from a re-analysis of the deposited data

Results flagged for a closer look

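Replicate 3 at 943 mg/kg stood apart from its group for Pla2g2a. Its log2 value was 5.09, and the nearest animal of the group was at 7.02, a gap of 0.648 of the group's whole range. The check covered 30 sets of 6 animals (Pla2g2a, Iah1, Dohh, Msln and Anxa1 in 6 groups), and chance gives about 1 such animal in 20 sets. Without this animal the difference between 943 mg/kg and vehicle was 1.77, and with it 1.38.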

How the results depend on the processing

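The Pla2g2a slope (0.27) was 0.17 without the 943 mg/kg animals and 0.38 over dosed animals alone, and moved by less than its SE under the 10 other alternatives, the replicate block included (0.27). With 1 animal left out it lay between 0.24 and 0.31. The difference at 943 mg/kg lay between 1.18 and 1.77, at 94.3 mg/kg between 0.37 and 0.82, at 9.4 mg/kg between 0.06 and 0.45, at 0.94 mg/kg between -0.23 and 0.22 and at 0.1 mg/kg between -0.35 and 0.01. Counts of probe sets and of list members passing limma stayed at 0 under every alternative run, and with the replicate block too. Replicate numbers did not pair the animals: deviations of same-numbered animals correlated at a median of 0.0026, and 7 of 36 animals correlated best with their own number. The list of genes most like Pla2g2a was less stable. Of the 10 genes, 5 stayed among the highest 10 by Spearman rho, 3 without the 2 extreme livers, 7 in the upper 50% of probe sets by mean, 10 with arrays centred on their medians, 3 with group means kept, 4 with the replicate block, 3 in dosed animals alone, and 5 to 10 with 1 animal left out, with 5 without 943 mg/kg replicate 3 or replicate 6. Iah1 ranked first in the first 4 of these alternatives, 4th with group means kept, 20th with the replicate block and 6th in dosed animals alone. The causes were not tested. Probe sets below the array medians limit what small changes can show.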
